A study of Mus musculus with 4 samples.

Results

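Glutathione S-transferases are the enzymes that join the tripeptide glutathione to electrophilic compounds, among them drugs, products of lipid peroxidation and carcinogens. They were followed here through 10 genes: Gstm1, Gstm2 and Gstm5 of the mu class, Gsta4 of the alpha class, Gstp1 of the pi class, Gsto1 of the omega class, Gstt1 and Gstt3 of the theta class, and the membrane-bound Mgst1 and Mgst3. Members were the probe sets that the platform annotation maps to exactly 1 of these symbols, which gave 16 of the 45101 probe sets on the array and 10 of 18193 genes. The brightest of a gene's single-gene probe sets, by its mean over the arrays, stood for the gene. Signals were floored at 20% of the trimmed mean, which is 100.001, and values at the floor have no order. Of the 10 genes, 9 exceeded this floor somewhere and 8 did so on every array.

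RNA came from 4 cultures of purified fetal liver progenitor cells of p53-/- mice, so all 4 groups lack p53. One culture was non-transformed and the others were transformed with H-RasV12, a constitutively active H-Ras GTPase, with myr-Akt, a form of AKT1 tethered to membranes by a myristoyl group, or with c-Myc, a transcription factor. All grew in medium with 10% fetal bovine serum, dexamethasone, nicotinic acid, 2-mercaptoethanol, 20 ng/ml EGF and 50 ng/ml HGF. With 1 array per group there is no spread between cultures and no test or p-value, and this limits how precisely any value is known. The labels do not give the vector, the age of the embryos or whether a culture was 1 clone.

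Between 9492 and 10216 genes were above the floor on an array. The Myc probe set, which might check the labels, read 2285.2 in non-transformed cells and was lowest, at 420.6, on the array labelled c-Myc. No source used here says whether that probe set detects the introduced sequence, so the cultures are called by their labels and every direction for c-Myc rests on the label. The cell type named by the labels was set against marker genes. Of 9 hepatoblast and hepatocyte markers with a single-gene probe set, 2 were above the floor in non-transformed cells, 6 with H-RasV12, 0 with myr-Akt and 1 with c-Myc. Alb, the gene of albumin and named here as the defining marker of the list, had signals of 3.7, 167.6, 19.8 and 26.6 in that order of arrays, and Afp, its fetal counterpart, of 13.0, 568.3, 43.6 and 6.4. Of 6 biliary and progenitor markers, 5 were above the floor in non-transformed cells, 4 with H-RasV12, 4 with myr-Akt and 3 with c-Myc. Among them, and named after their values were seen, Krt19, a keratin of bile duct cells, had 2322.1 in non-transformed cells and Sox9, a transcription factor of biliary precursors, had 388.4. On the myr-Akt and c-Myc arrays Sox9 was under the floor, at 28.4 and 36.6. Epcam and Prom1, also named after their values were seen, had 112.1 and 56.4 in non-transformed cells, close to the floor and under it. All 9 mesenchymal markers and all 5 mesothelial markers were also above the floor in non-transformed cells, while 1 of 5 blood markers and 0 of 5 endothelial markers were. Summed over each list, the signal in non-transformed cells was 132602 for mesenchymal, 32857.8 for mesothelial and 7711.8 for biliary and progenitor markers.

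The cytosolic transferases work as dimers and differ by class in the compounds they prefer, and the membrane-bound ones belong to a separate protein family that also includes enzymes of leukotriene and prostaglandin synthesis. In the adult liver these enzymes are abundant and form part of the defence against reactive metabolites. Several of their genes are targets of NRF2, a transcription factor that is held back by KEAP1 until cells meet oxidants or electrophiles and then binds antioxidant response elements. Glutathione itself is made from cysteine, glutamate and glycine, the first step being catalysed by the enzyme that Gclc and Gclm encode.

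The promoters of the genes the results turn on were examined for the core of that element, TGACNNNGC, on both strands, with sequence from RefSeq on mouse build GRCm38.p6. Of the 10 genes, 9 had a window of 300 bases, 250 before and 50 after an annotated start, and Gsta4 had none. The core was found for 2 of the 9, Mgst1 and Gstm5. Over all 27025 genes with a window, 14.0% held it. The AP-1 motif TGANTCA, which can overlap the core, was found for 2 of the 9, Gstm5 and Gstp1, against 8.97% of all genes, and in neither of them did it overlap a core. The 250 bases before the start are shown for Gstm1 and Mgst3, the members with the widest differences between arrays, and for the members with a core, which is in capitals. The stretch of Gstm1, before the downstream of its 2 starts, is chr3:108017819-108018068 on the minus strand, and that of Mgst3 is chr1:167393842-167394091 on the minus strand. The stretch of Mgst1, before the upstream of its 2 starts, is chr6:138140277-138140526 on the plus strand, and that of Gstm5 is chr3:107895604-107895853 on the plus strand.
Gstm1: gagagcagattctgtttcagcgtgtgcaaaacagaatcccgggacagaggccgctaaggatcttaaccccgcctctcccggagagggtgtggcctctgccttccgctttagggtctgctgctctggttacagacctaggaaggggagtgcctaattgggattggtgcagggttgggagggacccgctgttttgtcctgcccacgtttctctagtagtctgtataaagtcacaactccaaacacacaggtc
Mgst3: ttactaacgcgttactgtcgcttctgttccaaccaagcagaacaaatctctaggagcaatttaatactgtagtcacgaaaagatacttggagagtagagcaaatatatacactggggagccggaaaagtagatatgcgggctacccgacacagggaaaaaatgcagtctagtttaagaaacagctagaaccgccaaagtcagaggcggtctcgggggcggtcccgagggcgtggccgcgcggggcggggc
Mgst1: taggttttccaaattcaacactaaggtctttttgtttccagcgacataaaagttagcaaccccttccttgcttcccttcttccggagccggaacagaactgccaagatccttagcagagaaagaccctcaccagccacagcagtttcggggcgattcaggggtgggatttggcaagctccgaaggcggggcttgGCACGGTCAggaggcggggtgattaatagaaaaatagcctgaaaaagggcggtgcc
Gstm5: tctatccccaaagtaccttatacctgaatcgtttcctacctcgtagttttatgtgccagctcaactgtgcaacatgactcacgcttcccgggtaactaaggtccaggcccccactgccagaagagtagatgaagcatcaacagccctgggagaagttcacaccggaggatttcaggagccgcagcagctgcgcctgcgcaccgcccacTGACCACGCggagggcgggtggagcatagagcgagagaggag
The core of Gstm5 began 42 bases before the start and that of Mgst1 56 bases before it, the latter on the opposite strand. No match to these letters was found in the windows of Gstm1 and Mgst3. A match is a description of the letters only, and a site outside a window would be missed. The window of Nqo1, described below among NRF2 targets, held no core either, whereas that of Gclm held one. Of the other genes outside the 10 examined in the same way, Srxn1 had a core, and so did Txnrd1, in only part of its windows. Gstm4, Gstk1 and Mgst2 had none.

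Among the mu-class genes, Gstm1 stood higher with myr-Akt and with c-Myc, whereas Gstm2 stood lower on the array labelled H-RasV12 and Gstm5 differed little. The mu class handles epoxides and other electrophiles, and its 7 mouse genes lie side by side on chromosome 3 in the order Gstm5, Gstm7, Gstm6, Gstm3, Gstm2, Gstm1 and Gstm4. Gstm1 (probe set 1416416_x_at) had signals of 905.0 in non-transformed cells, 790.5 with H-RasV12, 3739.7 with myr-Akt and 2784.7 with c-Myc. The former pair of arrays was low and the latter pair high. Relative to non-transformed cells, Gstm1 was 4.13 times higher with myr-Akt (log2 difference 2.05) and 3.08 times higher with c-Myc (1.62), while H-RasV12 differed by -0.20. Of the 10679 genes that exceeded the floor on any array, 0.346% were as high or higher with myr-Akt against non-transformed and 0.721% with c-Myc against non-transformed.

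Gstm1 had 3 further single-gene probe sets. Probes of a set ending in _x_at can also bind other transcripts, which matters among close paralogs, but the next brightest set, 1448330_at, lacks that mark. Its signals were 753.7, 830.3, 3479.6 and 2655.5 in the same order of arrays, with log2 differences of 0.14, 2.21 and 1.82 from non-transformed cells. Thus both bright sets separated the same arrays. The remaining sets were dim: 1425627_x_at had 100.1, 8.0, 217.3 and 192.2, and 1425626_at stayed under the floor, between 34.3 and 95.7. Averaged over all 4 sets, the difference with myr-Akt was 1.34.

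**Figure D1:**
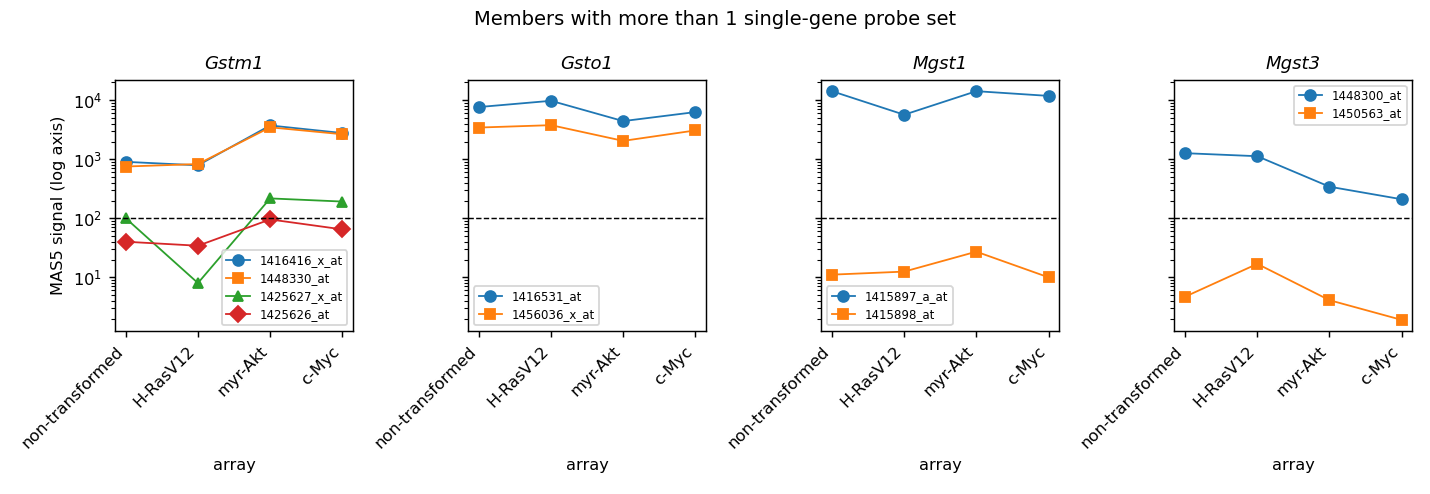
MAS5 signal (log axis) of every single-gene probe set of the 4 members that have more than 1, on the 4 arrays. Lines join the same probe set, the dashed line is the signal floor of 100.001, and the 2 bright sets of Gstm1 both lie higher with myr-Akt and with c-Myc, while the second sets of Mgst1 and Mgst3 stay under the floor.

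Gstm2 (1416411_at), the neighbour of Gstm1, had signals of 1551.4 in non-transformed cells, 577.7 with H-RasV12, 1844.1 with myr-Akt and 1673.3 with c-Myc. The array labelled H-RasV12 was the low one, at 2.69 times below non-transformed (-1.43), and the others differed by 0.25 and 0.11. Gstm5 (1416842_at), at the other end of the cluster, had 3715.0, 2773.7, 3092.8 and 3427.6, with differences between -0.42 and -0.12. The other genes of the cluster were dim. Gstm3, Gstm6 and Gstm7 were under the floor on every array. Gstm4, given here as the last neighbour after its values were seen, had 191.5 and 182.7 on the non-transformed and H-RasV12 arrays and was under the floor on the other arrays, at 78.0 and 69.2. Adjacent genes of the cluster therefore did not share 1 pattern over the 4 arrays.

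**Figure D2:**
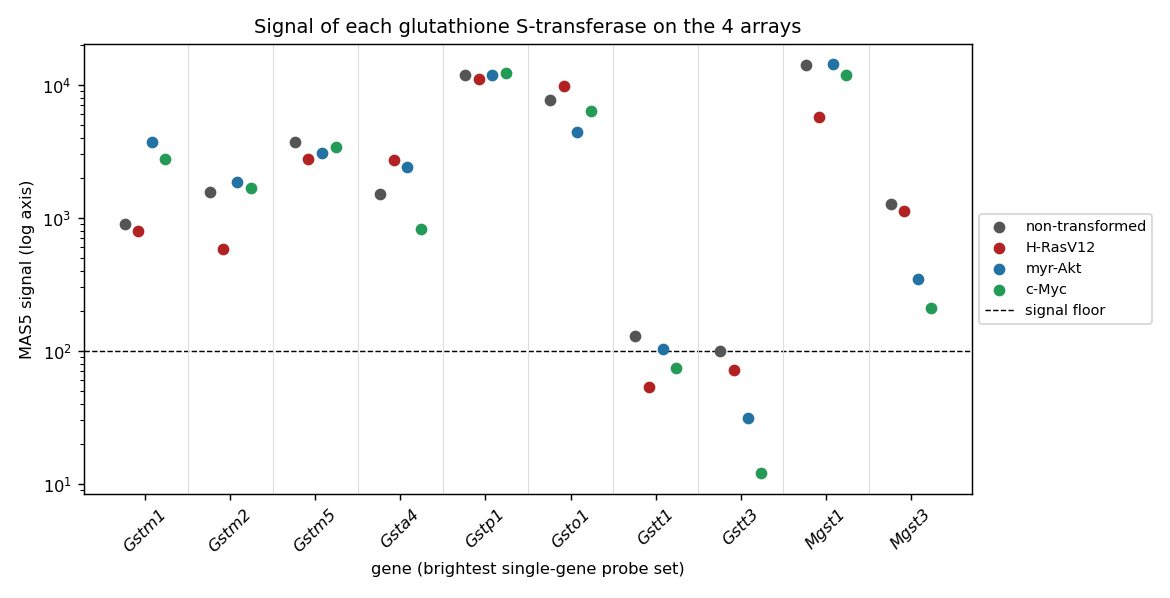
MAS5 signal (log axis) of the brightest single-gene probe set of each of the 10 genes, with 1 point per array and the floor of 100.001 as a dashed line. Gstp1 lies between 11095.8 and 12197.4 on all 4 arrays, whereas Mgst3 runs from 1268.7 in non-transformed cells to 210.2 on the array labelled c-Myc, and Gstt3 is under the floor throughout.

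Of the membrane-bound enzymes, Mgst3 was lower with myr-Akt and c-Myc and Mgst1 was lower with H-RasV12. MGST3 is a microsomal enzyme with glutathione transferase and peroxidase activity. The signals of Mgst3 (1448300_at) were 1268.7 in non-transformed cells, 1127.3 with H-RasV12, 343.2 with myr-Akt and 210.2 with c-Myc. The last 2 arrays were the low ones, 3.70 times (-1.89) and 6.04 times (-2.59) below non-transformed, against -0.17 for H-RasV12. Of all genes tested, 1.64% were as low or lower with c-Myc against non-transformed and 4.20% with myr-Akt against non-transformed. The second probe set of Mgst3, 1450563_at, read 1.9 to 16.9, under the floor on every array, so these differences rest on 1 probe set.

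Mgst1 encodes a microsomal transferase, also present in the outer mitochondrial membrane, that protects membranes from lipid peroxides. Its signals (1415897_a_at) were 14234.7 in non-transformed cells, 5685.2 with H-RasV12, 14252.7 with myr-Akt and 11853.6 with c-Myc. The H-RasV12 array stood alone, 2.50 times below non-transformed (-1.32), and 3.69% of all genes were as low or lower there. The other differences were 0.00 and -0.26. A second set, 1415898_at, read 10.0 to 27.2, under the floor, so again 1 probe set carries the difference. Mgst1 has a motif core in the promoter sequence shown above and Mgst3 has none. The transformed arrays that were low differed between these genes, and whether the core bears on either signal was not tested.

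Gsta4 was the 1 member that separated the myr-Akt and c-Myc arrays by 2-fold or more. The alpha-class enzyme it encodes is known for its high activity towards 4-hydroxynonenal, a product of lipid peroxidation. Signals of Gsta4 (1416368_at) were 1514.6 in non-transformed cells, 2723.3 with H-RasV12, 2392.6 with myr-Akt and 825.2 with c-Myc. The H-RasV12 and myr-Akt arrays were above the non-transformed one by 0.85 and 0.66, short of 2-fold, and the c-Myc array was below it by a difference of -0.88. Between myr-Akt and c-Myc the gene differed 2.90 times (1.54), and 0.581% of all genes were as high or higher in that comparison. These values rest on 1 probe set.

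Gstp1, of the pi class, is the mouse counterpart of a known marker of preneoplastic foci in rat liver. Its signals (1449575_a_at) were 11810.7, 11095.8, 11829.0 and 12197.4 on the non-transformed, H-RasV12, myr-Akt and c-Myc arrays. The range over all 4 spanned 0.14 on the log2 scale, the narrowest of the 8 members above the floor on every array. Gstp2, a close copy beside it on chromosome 19, had no single-gene probe set, so a share of this signal may belong to it. Gstp1 carries the AP-1 motif 74 bases before its start.

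Gsto1, of the omega class, reduces dehydroascorbate and mixed disulfides more than it conjugates. The signals of its probe set 1416531_at were 7672.0, 9789.4, 4434.0 and 6307.2 in the same order. The H-RasV12 array was highest and the myr-Akt array lowest, with differences from non-transformed cells of 0.35 and -0.79, and the c-Myc array lay at -0.28. The second set, 1456036_x_at, at 3447.7, 3784.8, 2049.9 and 3083.9, kept that order, and no difference from non-transformed cells reached 2-fold by either set.

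The theta-class genes were near or under the floor. Gstt1 (1418186_at), which encodes an enzyme that acts on halogenated methanes, had 128.0, 52.8, 103.2 and 73.9, so its level on the H-RasV12 and c-Myc arrays was not measured above the floor. It was at least 1.28 times lower on each of them, and with the floor lowered to 10% of the trimmed mean its difference with H-RasV12 was -1.28. Gstt3 (1423891_at) had 98.8, 70.9, 31.3 and 11.9, all under the floor, and no difference is given for it.

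With H-RasV12 against non-transformed, 0 of the 9 members above the floor were 2-fold or more higher and 2, Gstm2 and Mgst1, were 2-fold or more lower. Over all genes, 2.08% were higher and 6.27% lower. The members' median was -0.20 and that of all genes 0.003. With myr-Akt, 1 of 9 was higher, Gstm1, and 1 lower, Mgst3, where 4.90% of all genes were higher and 12.7% lower. The medians were 0.002 and -0.02. With c-Myc, the same 2 genes were the 1 higher and the 1 lower of 9, against 4.42% and 11.3% of all genes, and the medians were -0.26 and 0.00. Between myr-Akt and c-Myc, 1 of 9 was higher with myr-Akt and 0 lower, where 1.53% and 2.01% of all genes were, with medians of 0.14 and 0.00. These counts are small, and nothing is read from the family as a whole. The comparisons with non-transformed cells share that 1 array.

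**Figure D3:**
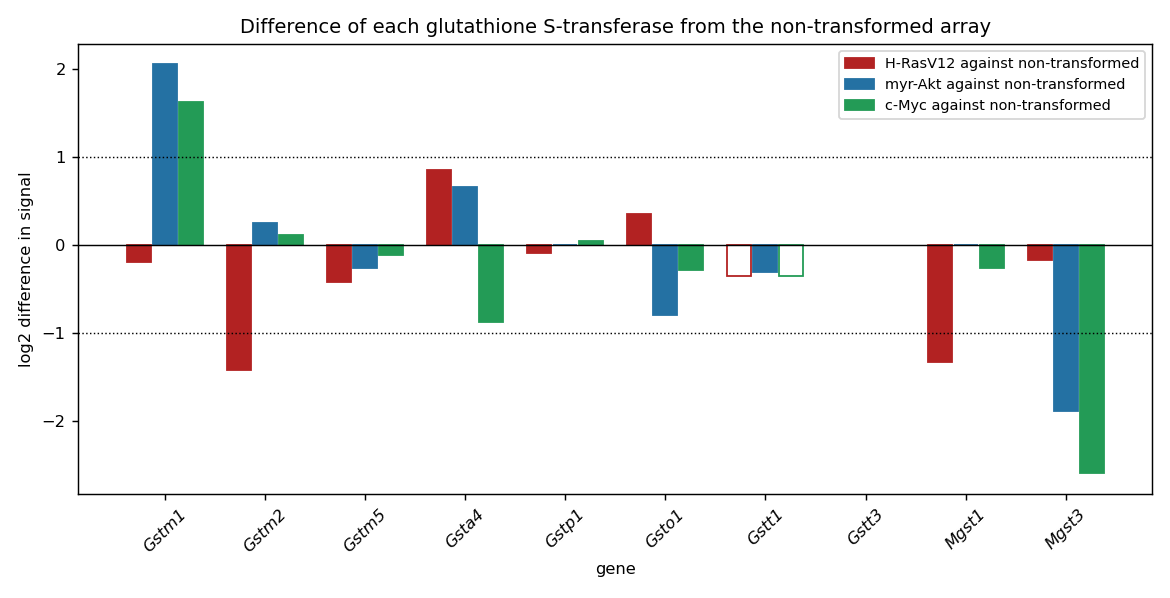
Log2 difference in signal from the non-transformed array for each gene, with 1 bar per transformed array. Dotted lines mark 2-fold, open bars are bounds set by the floor, and Gstt3 has no bar. Gstm1 reaches 2.05 and 1.62 with myr-Akt and c-Myc, Mgst3 -1.89 and -2.59, and the H-RasV12 bars of Gstm2 and Mgst1 reach -1.43 and -1.32.

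**Figure D4:**
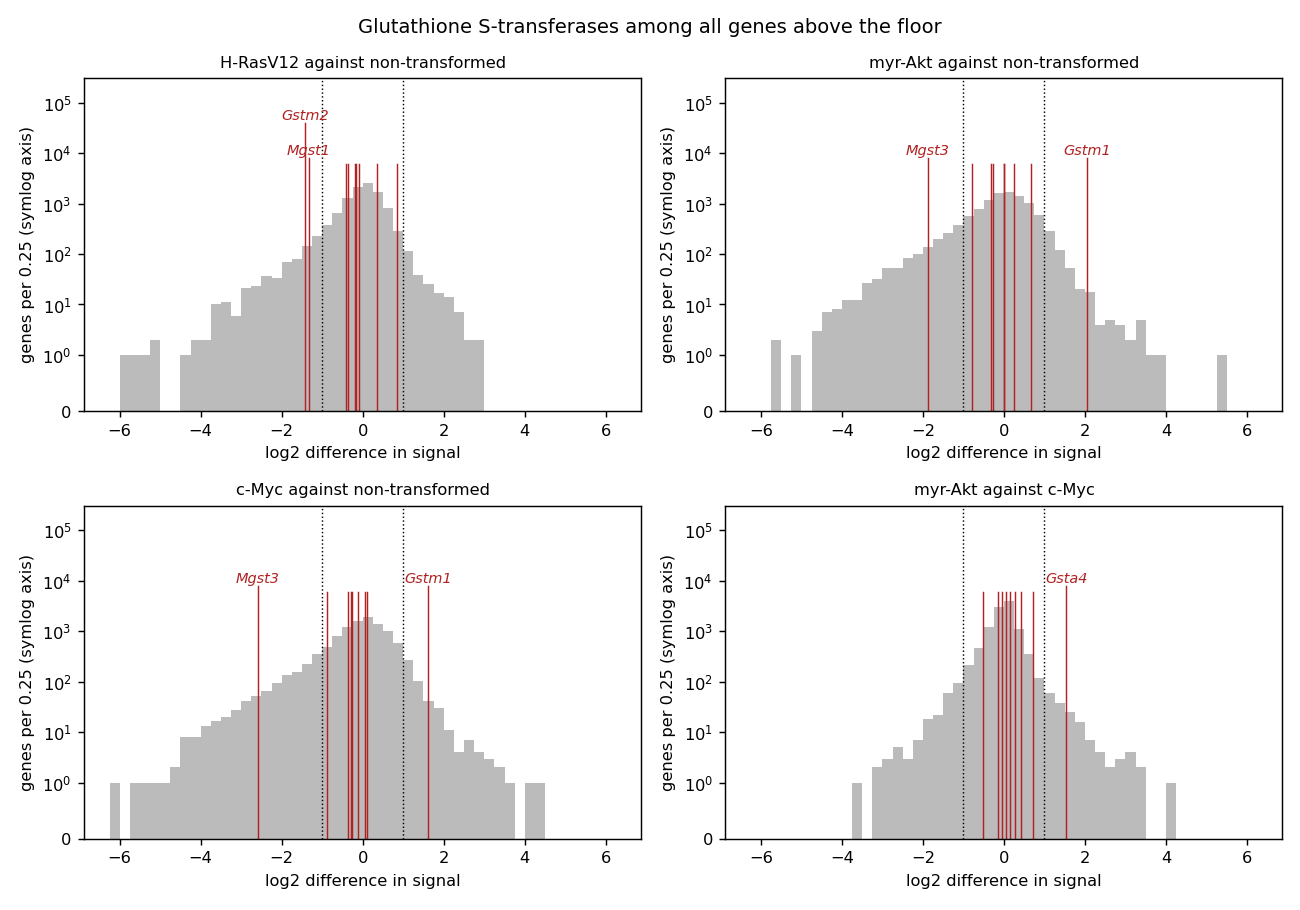
Number of genes per interval of log2 difference (grey, vertical axis linear below 1 and logarithmic above) for the 10679 genes that exceed the floor on any array, in each of 4 comparisons. Red lines are the 9 glutathione S-transferases tested, named where they pass the dotted 2-fold lines. Gsta4 is the 1 member past the line between myr-Akt and c-Myc, at 1.54.

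Markers of several cell types also differed between these arrays. For scale, 6.27% of all genes were at least 2-fold lower with H-RasV12 than in non-transformed cells, 12.7% with myr-Akt and 11.3% with c-Myc. At least 2-fold higher were 2.08%, 4.90% and 4.42%. On the array labelled H-RasV12, where Gstm2 and Mgst1 were low, all 5 mesothelial markers were at least 2-fold lower than in non-transformed cells, with a median of -3.55. Their summed signal was 6273 there and between 24838.5 and 32857.8 on the other arrays. Of 9 mesenchymal markers, 4 (44.4%) were at least 2-fold lower in each comparison with non-transformed cells. Their summed signal was 132602 in non-transformed cells and 68385.9 to 90421.1 on the transformed arrays. Of 6 hepatoblast and hepatocyte markers tested, 3 (50.0%) were at least 2-fold higher with H-RasV12 and 0 lower, and with myr-Akt and with c-Myc 0 were higher and 1 lower. The single lower gene is 16.7% of the list, near the share of all genes, so nothing is read from it. The summed signal of this list was 5929.7 with H-RasV12 and between 181.7 and 883.3 on the other arrays. Of 5 biliary and progenitor markers tested, 2 were higher and 1 lower with H-RasV12, 1 higher and 2 lower with myr-Akt, and 0 higher and 1 lower with c-Myc. A single gene is 20.0% of that list, so these counts are too small to read. The sum for that list was 7711.8 in non-transformed cells, 13667.5 with H-RasV12, 13795.1 with myr-Akt and 7573.5 with c-Myc. The part of these cells in the results on Gstm2, Mgst1, Gstm1 and Mgst3 was not tested. In RNA of a whole culture, fewer cells of a type and less RNA per cell cannot be told apart. Aldh1a1, a retinaldehyde dehydrogenase, resembled Mgst1 on the H-RasV12 array at 3444.6 against 12702.8 (-1.88), while with myr-Akt and c-Myc it lay at -0.22 and -0.34.

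By a distance between log2 signals centred over the 4 arrays, the genes most like Mgst3, the member with the widest range (2.59), were sought among 8964 others above the floor on every array. They were Mt1, a metallothionein (distance 0.26), Myc (0.27), Ehbp1l1 (0.30), Gstk1 (0.34) and Fgf13 (0.38). Mt1 had signals of 2282.9, 2194.0, 524.3 and 352.5, and Myc of 2285.2, 1747.1, 639.7 and 420.6. With 4 arrays, a small distance says only that the same arrays were high and low.

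Outside the 10 genes, Gstk1 and Mgst2 were lower with myr-Akt and c-Myc, as Mgst3 was. Of 22 further transferases and relatives listed, 19 had a single-gene probe set and 10 exceeded the floor somewhere. With H-RasV12 0 of these 10 passed 2-fold in either direction. With myr-Akt 0 were higher and 2 lower (median -0.61), and with c-Myc 0 were higher and 2 lower (median -0.60). They were Gstk1 and Mgst2 each time. These 2 are 20.0% of the 10, where 12.7% of all genes were lower with myr-Akt and 11.3% with c-Myc, so nothing is read from the count. Gstk1, the kappa-class transferase of mitochondria and peroxisomes, had signals of 729.1 in non-transformed cells, 721.5 with H-RasV12, 165.7 with myr-Akt and 135.5 with c-Myc, which is 4.40 and 5.38 times lower on the last 2 arrays. Mgst2, which can also make leukotriene C4, had 465.8, 417.0, 117.7 and 119.7, or 3.96 and 3.89 times lower. On the H-RasV12 array Gstk1 was at -0.02 and Mgst2 at -0.16, where Mgst3 was at -0.17.

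Of the genes listed for making, recycling or breaking down glutathione, 33.3% of those measured were 2-fold or more higher with myr-Akt, against 4.90% of all genes. Of 22 listed, 18 exceeded the floor somewhere, and 6 of these were higher by that rule and 0 lower with myr-Akt (median 0.61), 1 higher and 1 lower with H-RasV12 (median 0.18), and 0 higher and 0 lower with c-Myc (median 0.16). The single calls with H-RasV12 are 5.56% each way, where 2.08% of all genes were higher and 6.27% lower. Gclc, the catalytic subunit of glutamate-cysteine ligase, had signals of 2108.8, 4424.2, 5728.0 and 2581.7 on the non-transformed, H-RasV12, myr-Akt and c-Myc arrays, and was 2.10 times higher with H-RasV12 and 2.72 times with myr-Akt. Gclm, its modifier subunit, had 2895.0, 4659.2, 8420.7 and 5036.5, and was 2.91 times higher with myr-Akt. For both, the myr-Akt array was the highest and the non-transformed one the lowest.

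Gsr, glutathione reductase, was 2.10 times higher with myr-Akt, at 2582.4 against 1228.5. Pgd, a pentose phosphate enzyme that supplies the NADPH this reduction needs, was 2.46 times higher, at 9675.1 against 3940.5. Chac1, which breaks glutathione down in the cytosol, was 2.13 times higher, at 3689.7 against 1733.8, and was at 1044.3 and 1345.2 on the H-RasV12 and c-Myc arrays. The sixth gene was Cth, which makes cysteine from cystathionine, at 1.04, named after its value was seen. Cth, Gsr (1.07) and Chac1 (1.09) lay just past the 2-fold cut, so the count of 6 rests in part on genes close to it. Oplah, 5-oxoprolinase, had 373.3 in non-transformed cells and was under the floor with H-RasV12, at least 3.73 times lower.

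Among 18 measured glutathione peroxidases, peroxiredoxins and related proteins, 1 was lower with H-RasV12, 2 with myr-Akt and 4 with c-Myc, and 0, 0 and 1 were higher. The lower ones are 5.56%, 11.1% and 22.2% of the list, where 6.27%, 12.7% and 11.3% of all genes were lower, so with H-RasV12 and myr-Akt the share was close to that of all genes. Gpx3, the secreted peroxidase, had signals of 1640.3, 584.0, 87.6 and 37.4, which is 2.81 times lower with H-RasV12 and at least 16.4 times lower with myr-Akt and with c-Myc. Gpx7, a peroxidase of the endoplasmic reticulum, had 2320.0, 1700.2, 304.8 and 160.4, which is 7.61 and 14.5 times lower on the last 2 arrays. Gpx8, its close relative, was at -0.82 with myr-Akt and -1.09 with c-Myc. Srxn1, which repairs over-oxidised peroxiredoxins, had 1053.5, 1217.7, 1661.2 and 357.2 and was low on the c-Myc array alone (-1.56). Txnrd2, the mitochondrial thioredoxin reductase, was the 1 gene higher with c-Myc (1.04), which is 5.56% of the list where 4.42% of all genes were higher. Its signals were not far above the floor, at 126.0 in non-transformed cells and 258.9 with c-Myc. The next brightest probe set gave 0.96, and with the floor at 40% of the trimmed mean 0 genes of the list were higher with c-Myc.

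Among 7 measured transporters of conjugates and drugs, 1 was higher with H-RasV12 and with myr-Akt and 0 with c-Myc, and 1 was lower in each of these comparisons. One gene is 14.3% of the list. Over all genes, 2.08%, 4.90% and 4.42% were higher and 6.27%, 12.7% and 11.3% lower, and 1 gene of 7 gives no result for the list. Abcc4, an exporter of organic anions, was the higher one, with signals of 858.9, 2640.4, 3000.6 and 1681.2 and differences of 1.62, 1.80 and 0.97. The lower ones were Abcc10 with H-RasV12 (at least 2.12 times) and Abcb1a, a P-glycoprotein that exports hydrophobic drugs, with myr-Akt (2.01 times) and c-Myc (at least 2.70 times). With the floor at 40% of the trimmed mean, 0 transporters were lower in each of these comparisons. The next brightest probe set gave 0 for Abcc10 with H-RasV12, and -0.39 for Abcb1a with myr-Akt and with c-Myc.

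Of 20 measured NRF2 regulators and targets outside the transferase family, 6 were 2-fold or more higher with myr-Akt than with c-Myc and 0 lower (median 0.35). Over all genes, 1.53% were higher and 2.01% lower in that comparison, with a median of 0.00. The other 14 did not pass 2-fold, and 5 of the 20 had a difference below 0. Of the 6, Osgin1 at 2.00 times and Ephx1, named after its value was seen, at 2.02 times lay just past the cut. The count of 6 was not recomputed under other settings. Against non-transformed cells, 1 was higher and 0 lower with H-RasV12, where 2.08% and 6.27% of all genes were. With myr-Akt 3 were higher and 1 lower, beside 4.90% and 12.7% of all genes. With c-Myc 0 were higher and 2 lower, and these 10.0% are close to the 11.3% of all genes that were lower. Nfe2l2, which encodes NRF2, had 4227.6, 4428.7, 3303.5 and 2470.3, and Keap1 had 1022.0, 1066.7, 904.8 and 809.3. Neither regulator differed by 2-fold from non-transformed cells. With c-Myc the next brightest probe set of Nfe2l2 went the other way, at 0.29 where the brightest gave -0.78. Nqo1, a quinone reductase, had 382.1, 703.0, 973.4 and 311.4, and was 2.55 times higher with myr-Akt than in non-transformed cells and 3.13 times higher than with c-Myc. Hmox1, heme oxygenase 1, had 1013.7, 1064.8, 2217.2 and 902.3, with the myr-Akt array standing 2.19 times above non-transformed. Cbr3, a carbonyl reductase, had 1024.7, 1215.4, 1689.3 and 239.2, and the c-Myc array was 4.28 times lower. Osgin1 was 3.42 times higher with H-RasV12 and 2.59 times with myr-Akt. Maff, a small MAF protein, was lower with myr-Akt (-1.48) and Blvrb, a biliverdin reductase, with c-Myc (-1.18).

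Gsta4 can be set beside these genes. The c-Myc array was its lowest, and this was also so for Nqo1, Srxn1 and Cbr3, which are named here after their values were seen. Among the other NRF2 regulators and targets listed, Hmox1, Blvrb, Nfe2l2, Nfe2l1, Keap1, Sqstm1, Cbr1, Taldo1 and, narrowly, Mafg were also lowest on the c-Myc array. The order was thus common in that list and not particular to the genes set beside Gsta4. The share of all genes that were lowest on that array was not counted. Some listed genes did not share that order. Osgin1, with signals of 245.1, 837.1, 634.7 and 317.1, and Gclc and Gclm, described above, were lowest on the non-transformed array.

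Other detoxification enzymes gave 0 higher and 1 lower of 12 measured with H-RasV12, 0 and 3 with myr-Akt, and 1 and 3 with c-Myc. A single gene is 8.33% of the list, and over all genes 6.27%, 12.7% and 11.3% were lower in these comparisons and 4.42% higher with c-Myc. Ephx2, the soluble epoxide hydrolase, had 1016.6, 1966.1, 66.5 and 36.0 and was at least 10.2 times lower with myr-Akt and with c-Myc. Akr1b8, an aldo-keto reductase, had 1816.8, 2626.4, 583.4 and 392.0, which is 3.11 and 4.63 times lower on those arrays. Aldh2, mitochondrial aldehyde dehydrogenase, was lower by differences of -1.57 and -1.76. The next brightest of its probe sets gave -0.77 with each, short of 2-fold. Ahr, the receptor that turns on several detoxification genes, was 2.32 times higher with c-Myc, at 2952.3 against 1274.2, and was at 0.96 with myr-Akt.

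**Figure D5:**
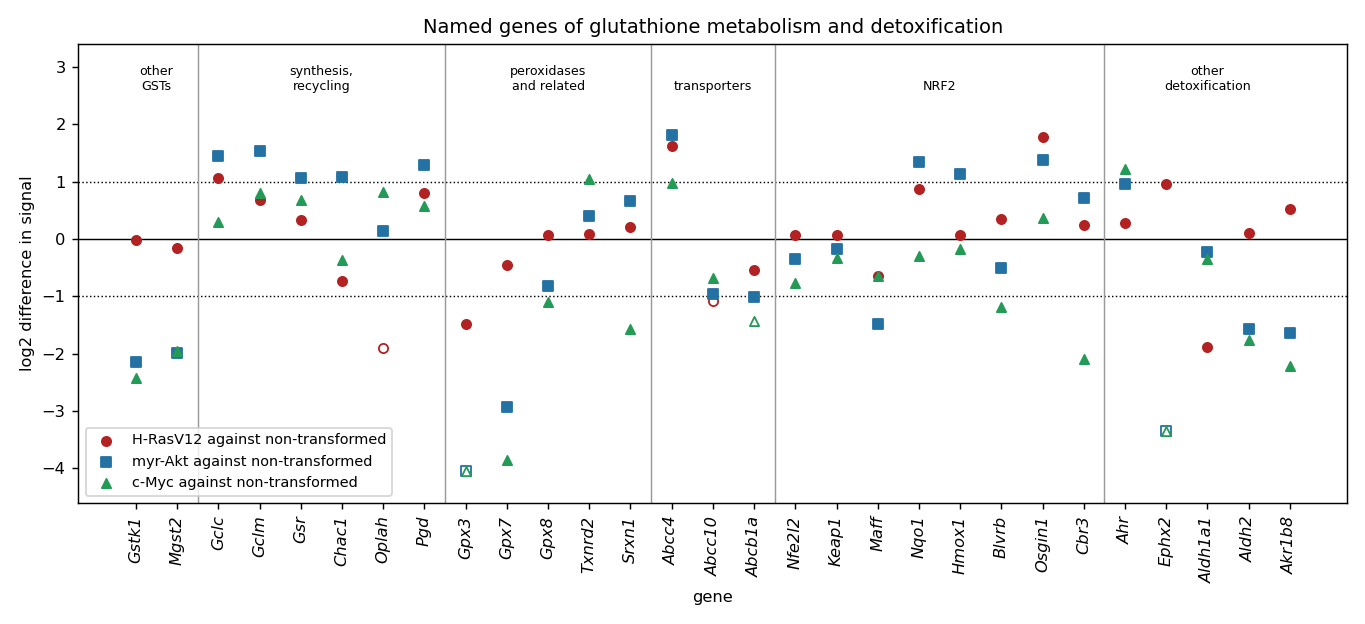
Log2 difference in signal from the non-transformed array for named genes of the other glutathione and detoxification lists, with 1 marker per transformed array. Dotted lines mark 2-fold and open markers are bounds set by the floor. Gclc, Gclm, Gsr, Chac1 and Pgd are above 1 with myr-Akt, while Gstk1, Mgst2, Gpx3 and Gpx7 are below -1 with myr-Akt and c-Myc.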

How the data were processed

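One single-colour Affymetrix Mouse Genome 430 2.0 array was measured for each of 4 cultures, from 1 µg of total RNA per the labels' protocols. The authors deposited linear signal intensities from MAS5, as the submitters' processing notes name it. Its version, detection calls and filters are not stated there. Trimmed by 2% at each end, the mean of every array was 500.003.

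Arrays were brought to a common trimmed mean, floored at 20% of it and converted to log2 (Python 3.11.15, pandas 2.3.3). Probe sets with several symbols (932), none (9160) or control function (64) named no gene, which left 34945. A gene was called higher or lower at 2-fold, a size rule without a test. The members, and the gene lists beside them, were chosen with earlier results of these data known, so a pattern in them is not independent evidence. All 10 members are named. From each other list, up to 6 genes with the largest difference of at least 2-fold are eligible, plus Nfe2l2, Keap1, Gclc, Gclm, Gsr, Nqo1 and Hmox1, and the 5 genes nearest in profile to the widest-ranging member. Cell type genes beyond those given were not described. The alternatives were other floors, a pseudocount, other probe sets and quantile normalization. Genome positions are given for promoter sequences only, since the value table names no build.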

Additional observations from a re-analysis of the deposited data

How the results depend on the processing

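No group has replicates, so stability across cultures could not be examined. No paired analysis was possible because each group holds 1 array and the labels carry no replicate numbers. The count of members at least 2-fold lower with H-RasV12 was 2, and 1 with the mean over probe sets, with the next brightest probe set and without probe sets ending in _s_at, _x_at or _a_at, while it was 3 with the floor at 10%, where Gstt1 joined it at -1.28. The count lower with myr-Akt was 1, and 0 with the mean over probe sets and with the next brightest probe set, and the count lower with c-Myc was 1, and 0 with the next brightest probe set. Those settings bring in the second sets of Mgst1 and Mgst3, which are under the floor on every array; the mean over probe sets gave Mgst1 -0.66 with H-RasV12, Mgst3 -0.94 with myr-Akt and -1.30 with c-Myc, and Gstm1 1.34 with myr-Akt. With the 10% floor, Gstt3 was at -0.98 with myr-Akt and with c-Myc. Of 276 recomputed member differences, 262 moved by under 1.5 times without crossing 2-fold, and 0 called ones changed sign. Many of these could not move, so the count says little about stability. For the 6 members with 1 probe set, the mean over probe sets and the next brightest set return the same value. Another floor leaves a gene that is above it on every array unchanged. Of 252 recomputed counts of the other lists, 217 stayed within 1.5 times. These covered the comparisons with non-transformed cells only, and list counts between myr-Akt and c-Myc were not recomputed. Further transferases at least 2-fold lower numbered 5 of 13 in place of 2 of 10 with the 10% floor, with myr-Akt and with c-Myc. At that floor 1 of the 13 was higher in each of these comparisons, in place of 0. Over the 11947 genes above that floor on any array, 1731 were lower with myr-Akt and 1585 with c-Myc. The count of lower transferases, and its distance from the share of all genes, therefore depends on the floor. Over all genes, the count higher with H-RasV12 was 222, and 136 with a pseudocount; lower, 670, and 436 with the mean over probe sets. The count higher with myr-Akt was 523, and 341 with that mean. The count higher with c-Myc was 472, and 298 with a pseudocount and 293 with that mean. Between myr-Akt and c-Myc, 163 were higher, and 106 with a 40% floor and 102 with that mean; 215 were lower, and 133 with a pseudocount, 140 with a 40% floor and 129 with that mean.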
